A study of Homo sapiens with 54 samples.

Results

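Expression of 9 neural crest transcription factors was examined in human pluripotent stem cells that were kept with basic fibroblast growth factor (bFGF), with the chimeric factor FGFC in its place, or with neither. The 9 genes were SOX9, SOX10, FOXD3, PAX3, PAX7, TFAP2B, ETS1, NR2F1 and NR2F2. They were found through the RefSeq accession that the array design gives for each probe, and they were 9 of the 19720 genes that could be named in this way. PAX3 and PAX7 each had 2 probes, so that 11 of 42405 probes belonged to the group.

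The neural crest is a population of embryonic cells that forms at the neural plate border, the seam between the future central nervous system and the surface ectoderm. Its cells leave the neural tube, migrate through the embryo and give rise to peripheral neurons and glia, melanocytes, and cartilage and bone of the face. Border genes such as PAX3 and PAX7 come on first, followed by specifiers such as FOXD3, SOX9, SOX10, ETS1 and the TFAP2 factors. NR2F1 and NR2F2, also called COUP-TFI and COUP-TFII, are orphan nuclear receptors that are used in crest cells and also in forebrain, heart and mesenchyme. Signalling by FGF, WNT and BMP is known to take part in setting up the border. Most of these genes have roles outside the crest as well, and FOXD3 is also active in pluripotent cells.

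RNA of 27 cultures was measured, each on 2 Agilent single-colour arrays that were averaged here. H1 embryonic stem cells in E8 Medium (Essential 6 Medium with 2 ng/mL TGF-beta 1, on Matrigel) were sampled in 3 numbered experiments, before and after 4 days with 100 ng/mL bFGF, 100 ng/mL FGFC or no FGF, and after 30 days with either factor in 1 experiment. The pre-cultures of these arms had been kept with 100 ng/mL bFGF. By their titles, they were at passages 48, 49 and 50 in experiments 1, 2 and 3, and the 4-day arms at passages 49, 59 and 51. The pre-culture of experiment 2 was thus not the passage just before its arms. The other long-term systems, each with a pre-culture in bFGF and 1 culture with either factor, were H1 in MEF-conditioned medium (41 days, 5 ng/mL), KhES-1 embryonic stem cells on MEF feeder cells (30 days, 5 ng/mL), and the induced pluripotent lines 201B7 on MEF feeder cells (50 days, 10 ng/mL) and 253G1 in E8 Medium (36 days, 100 ng/mL). Differentiated H1 was 1 culture without added FGF, made from embryoid bodies that were attached at day 8 and kept for 11 more days. Every group outside the 4-day arms and their pre-cultures is 1 culture. Nothing in the labels says that the numbered experiments began from separate stocks, so p-values measure the spread between these cultures.

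Levels are given as normalized log2 signal, that is, log2 of the processed signal minus the 75th percentile of the same array, so that 0 is the signal of a probe at that percentile. Levels of different probes are not set against each other. Of the probes, 56.2% to 79.2% were well above background on an array. The 75th percentile lay between 182 and 913 signal units, with the 2 arrays of the 201B7 pre-culture at 182 and 234. The pluripotency markers POU5F1, NANOG, SOX2, DPPA4, ZFP42 and LIN28A were well above background on all arrays. In bulk RNA of this kind, fewer cells that express a gene and less RNA in each cell cannot be told apart.

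Promoter sequence is shown for 4 members, so that the windows in front of PAX3 and NR2F1, which rose on the removal of FGF, and of PAX7, whose 2 probes disagreed, can be read beside that of FOXD3, which fell. Each is the 250 bases before a RefSeq transcript start in GRCh38.p14, written 5′ to 3′ on the strand of the gene. Capitals mark the CCAAT box (CCAAT or ATTGG) and the core of a TCF site (CTTTGA or TCAAAG), the element through which WNT signals act on DNA.
PAX3, chr2:222298999-222299248, minus strand: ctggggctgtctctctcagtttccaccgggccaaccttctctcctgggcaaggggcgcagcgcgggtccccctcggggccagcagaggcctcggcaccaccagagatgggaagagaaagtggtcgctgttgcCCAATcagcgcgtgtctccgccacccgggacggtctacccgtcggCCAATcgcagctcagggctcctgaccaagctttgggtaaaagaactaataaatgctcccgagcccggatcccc
PAX7, chr1:18630596-18630845, plus strand: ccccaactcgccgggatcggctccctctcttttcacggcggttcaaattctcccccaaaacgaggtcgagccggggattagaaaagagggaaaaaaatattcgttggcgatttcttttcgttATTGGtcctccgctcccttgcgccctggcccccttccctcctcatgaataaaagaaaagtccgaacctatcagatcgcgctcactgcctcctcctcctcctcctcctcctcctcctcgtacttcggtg
NR2F1, chr5:93582972-93583221, plus strand: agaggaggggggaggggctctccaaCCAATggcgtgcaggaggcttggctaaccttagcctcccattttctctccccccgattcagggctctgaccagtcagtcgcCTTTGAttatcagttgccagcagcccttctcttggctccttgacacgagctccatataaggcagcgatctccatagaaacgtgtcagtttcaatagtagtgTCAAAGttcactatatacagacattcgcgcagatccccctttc
FOXD3, chr1:63322317-63322566, plus strand: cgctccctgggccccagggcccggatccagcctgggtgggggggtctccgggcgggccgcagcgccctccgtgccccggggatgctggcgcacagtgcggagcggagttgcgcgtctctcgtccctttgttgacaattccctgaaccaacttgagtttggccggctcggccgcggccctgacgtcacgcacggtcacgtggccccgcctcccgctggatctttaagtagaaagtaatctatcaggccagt
The PAX3 window held 2 CCAAT boxes, the PAX7 window 1 and the NR2F1 window 1, and the FOXD3 window had none. Such a box occurs in 32% of all 35116 promoter windows of this length. The TCF core was present 2 times in the NR2F1 window and in none of the other 3, against 11.2% of all windows. A TFAP2 site (GCCNNNGGC) and a nuclear receptor element (AGGTCA or TGACCT), which occur in 19.8% and 12.1% of all windows, were not in these 4. Both strands were searched. These are matches of letters and were not tested for binding. Windows were at hand for 6 of the 9 members, and those of TFAP2B and NR2F2 are not printed because they lie inside the gene spans. A second NR2F1 window, also not printed, held 2 TCF cores and no CCAAT box. Of the NR2F2 windows, 1 held a TCF core and the other a TFAP2 site and a CCAAT box, and the TFAP2B window held 1 CCAAT box.

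When FGF was withheld for 4 days, 4 of the 9 members rose against bFGF (NR2F2, NR2F1, PAX3 and SOX9) and 2 fell (FOXD3 and ETS1) by limma with Benjamini-Hochberg adjustment over all probes at 0.05. Over all probes, 5.54% were called higher and 7.19% lower in this comparison. The median log2 difference of the 9 members was 0.92, beside 0.01 over all probes. Against FGFC, 3 members rose (NR2F2, PAX3 and SOX9) and 2 fell (FOXD3 and ETS1), where 4.72% of all probes were called higher and 6.07% lower. The 2 comparisons share the 3 cultures without FGF. All differences below are differences of normalized log2 signal, with the SE of the fit.

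**Figure D1:**
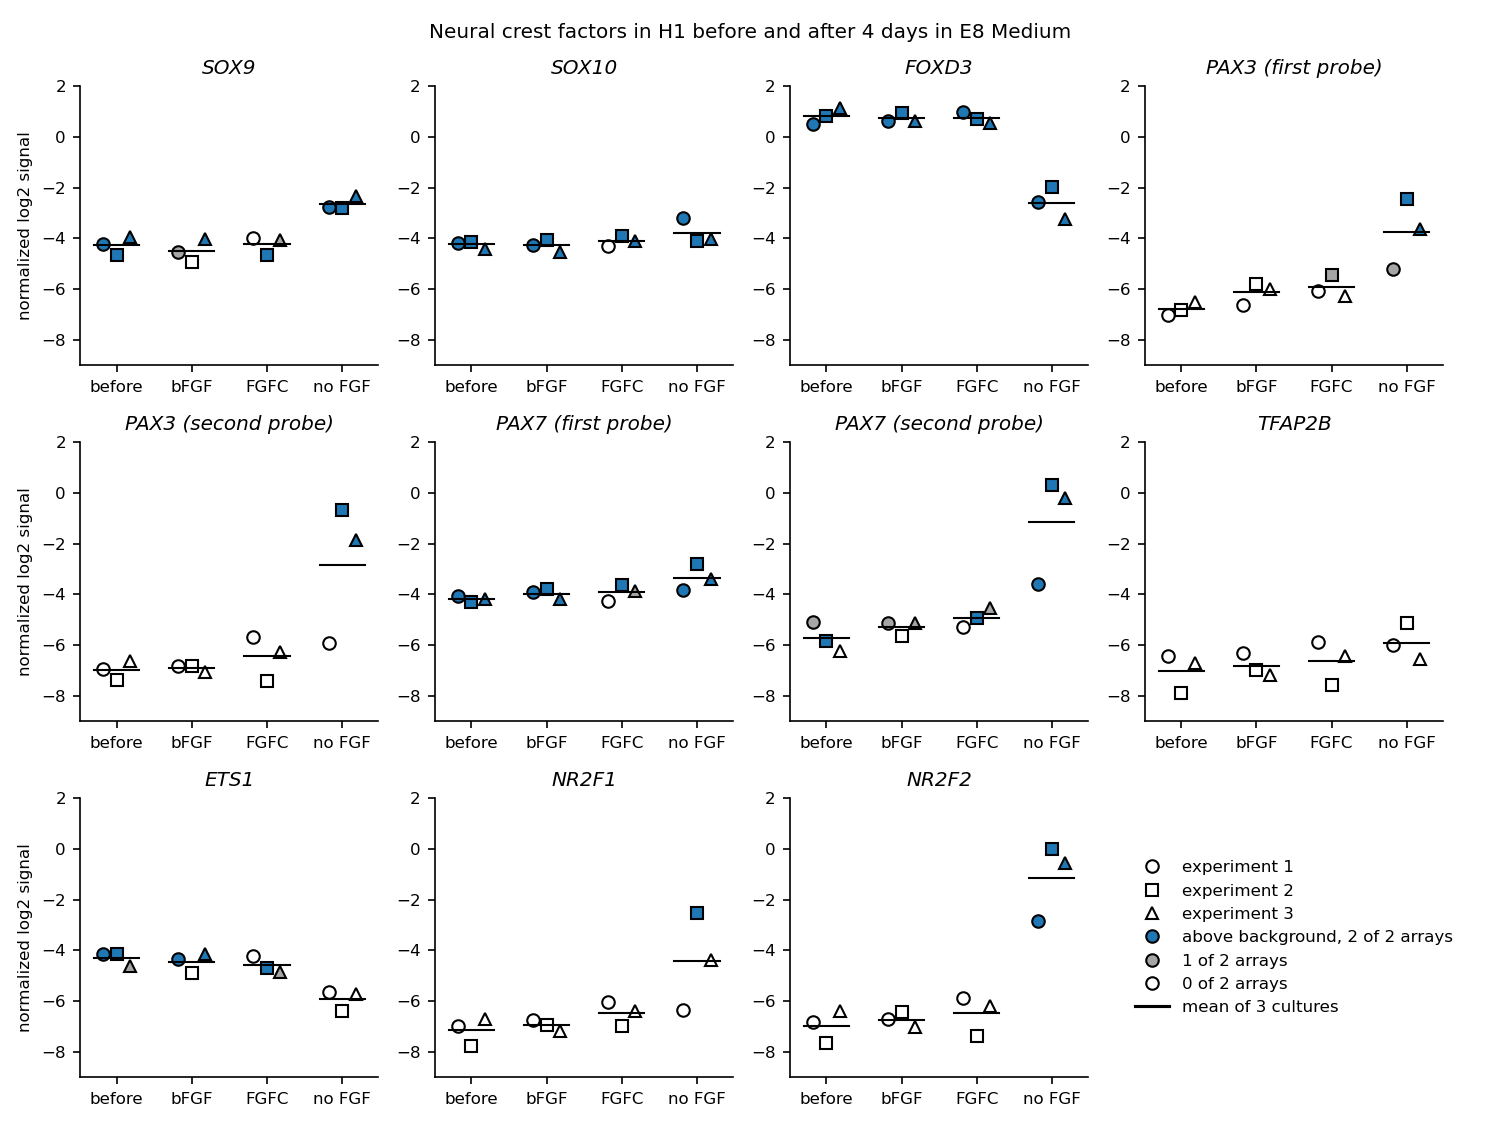
Normalized log2 signal of the 11 member probes (y axis) in H1 cells before and after 4 days in E8 Medium with bFGF, FGFC or no FGF (x axis), with 1 symbol for each of the 3 experiments and a line at the mean of 3 cultures. Fill gives on how many of the 2 arrays the probe was well above background. NR2F2 reached -2.84, -0.02 and -0.55 without FGF and stayed at or below -5.89 in the other 9 cultures, while FOXD3 fell to between -3.25 and -1.96.

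Of the nuclear receptors, NR2F2 showed the largest difference among the members. Its level without FGF was -2.84, -0.02 and -0.55 in experiments 1, 2 and 3, against -6.70, -6.43 and -7.03 with bFGF and -5.89, -7.36 and -6.20 with FGFC. The pre-cultures stood at -6.82, -7.66 and -6.39. The groups did not overlap, and the probe was well above background on all 6 arrays without FGF and on none of the 18 others of these arms. The difference from bFGF was 5.58 (SE 0.65, adjusted p = 0.000218) and that from FGFC was 5.35 (SE 0.65, adjusted p = 0.000342). Because the probe was not well above background with either factor, the rise is given as at least 25.2-fold over bFGF and at least 21.8-fold over FGFC, reckoned from the dimmest signal that counted as measured on each array.

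NR2F1, the close relative of NR2F2, moved in a much less even way. Without FGF its level was -6.35, -2.53 and -4.38, against -6.72, -6.94 and -7.17 with bFGF and -6.04, -6.98 and -6.39 with FGFC. Only the 2 arrays of experiment 2 were well above background, and the culture of experiment 1 lay inside the range of the FGFC cultures. The difference from bFGF was 2.53 (SE 0.72, adjusted p = 0.0423). No bound on the fold is given, because most arrays without FGF were not well above background either. That from FGFC was 2.05 (SE 0.72) and missed the threshold (adjusted p = 0.106). The call against bFGF was lost in 9 of 12 alternative settings, among them experiment as a replicate block (adjusted p = 0.0652), all other scalings (adjusted p = 0.072 to 0.0942), and the fits without experiment 2 (adjusted p = 0.182) and without experiment 3 (adjusted p = 0.387).

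The paired-box factors PAX3 and PAX7 mark the neural plate border and the dorsal neural tube, and PAX7 is also used in muscle precursors. The first PAX3 probe rose from -6.61, -5.79 and -5.99 with bFGF to -5.20, -2.46 and -3.61 without FGF, with FGFC at -6.07, -5.45 and -6.27. The groups did not overlap, although experiment 1 came close. The difference from bFGF was 2.37 (SE 0.54, adjusted p = 0.0147) and that from FGFC was 2.17 (SE 0.54, adjusted p = 0.0256). The probe was well above background on 5 of 6 arrays without FGF, so no bound on the fold is given. The second PAX3 probe, designed to another transcript variant, was at -6.80, -6.80 and -7.05 with bFGF and at -5.93, -0.69 and -1.85 without FGF. It was well above background on the 4 arrays of experiments 2 and 3 and on neither array of experiment 1, whose culture lay inside the range with FGFC (-7.40 to -5.68). Its difference from bFGF was 4.06 (SE 1.02, adjusted p = 0.0232), again without a bound on the fold. Both probes of PAX3 lost the call against bFGF when experiment 2 (adjusted p = 0.0885 and 0.181) or experiment 3 (adjusted p = 0.226 and 0.35) was left out. The first probe also lost it with the second arrays alone (adjusted p = 0.104), and the second probe with only the 2 arms fitted (adjusted p = 0.0651). Against FGFC the first probe lost the call without experiment 2 (adjusted p = 0.132) or 3 (adjusted p = 0.388), with the second arrays alone (adjusted p = 0.183) and with only the 2 arms fitted (adjusted p = 0.107).

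The 2 probes of PAX7 disagreed. The first, which had the higher mean over all arrays, gave -3.92, -3.78 and -4.19 with bFGF and -3.84, -2.80 and -3.38 without FGF. These ranges overlapped, and the difference of 0.63 (SE 0.26) did not pass (adjusted p = 0.154). The second probe, for another transcript variant, gave -3.60, 0.30 and -0.19 without FGF, where bFGF cultures had -5.13, -5.64 and -5.13 and FGFC cultures -5.29, -4.92 and -4.54. Here the groups were apart, with a difference of 4.13 (SE 0.79, adjusted p = 0.00546) from bFGF and 3.75 (SE 0.79, adjusted p = 0.0107) from FGFC. The call against bFGF was lost without experiment 2 (adjusted p = 0.122) or experiment 3 (adjusted p = 0.154), as was that against FGFC (adjusted p = 0.183 and 0.217), which was also lost with only the 2 arms fitted (adjusted p = 0.0662). PAX7 is counted above by its first probe, as not called, and with the second probe of each paired-box gene 7 of 9 members would be called.

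SOX9, the SOX factor of early crest and later of cartilage, rose in every experiment. Its level without FGF was -2.75, -2.79 and -2.34, where bFGF cultures had -4.55, -4.94 and -4.01 and FGFC cultures -4.00, -4.66 and -4.06. The cultures without FGF stood apart from the other 9 and close to each other. The difference from bFGF was 1.87 (SE 0.28, adjusted p = 0.00126), a 3.66-fold rise, and that from FGFC was 1.61 (SE 0.28, adjusted p = 0.00374), although the probe was well above background on only 3 of 6 arrays with either factor. The call against FGFC was lost without experiment 3 (adjusted p = 0.0608). SOX10, which follows SOX9 in migrating crest and stays on in glia and melanocytes, was at -4.24, -4.06 and -4.53 with bFGF and at -3.22, -4.08 and -4.02 without FGF. Only experiment 1 was clearly higher, and the difference of 0.50 (SE 0.24) did not pass (adjusted p = 0.221). TFAP2B, an AP-2 factor of crest and kidney, was not well above background on any array of the 4-day arms. Its difference from bFGF was 0.92 (SE 0.51, adjusted p = 0.298), and no fold is given.

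FOXD3 and ETS1 went the other way. FOXD3, a forkhead repressor of both pluripotent cells and premigratory crest, was at 0.60, 0.92 and 0.64 with bFGF and at 0.96, 0.68 and 0.56 with FGFC. It was at -2.55, -1.96 and -3.25 without FGF. Every culture without FGF lay below every culture with a factor, and all 6 arrays remained well above background. The fall was 9.92-fold against bFGF (log2 difference -3.31, SE 0.29, adjusted p = 3.57e-05) and 10.0-fold against FGFC (-3.32, SE 0.29, adjusted p = 3.8e-05). ETS1, an ETS factor of cranial crest and endothelium, went from -4.33, -4.89 and -4.13 with bFGF to -5.62, -6.37 and -5.74 without FGF, where no array was well above background. The difference was -1.46 (SE 0.28, adjusted p = 0.00555). With bFGF the probe was well above background on 4 of 6 arrays, so no bound on the fold is given. With FGFC it was at -4.21, -4.71 and -4.86, and the difference was -1.31 (SE 0.28, adjusted p = 0.0112), a call that was lost in 6 of 12 alternative settings. These were the fits with any 1 experiment left out (adjusted p = 0.0721 to 0.0991), normexp background correction (-0.30, adjusted p = 0.157), the floor (adjusted p = 0.0587) and the first arrays alone (adjusted p = 0.213). The ETS1 call against bFGF was lost without experiment 3 (adjusted p = 0.108), under normexp background correction (-0.22, adjusted p = 0.328) and with the first arrays alone (adjusted p = 0.0655).

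**Figure D2:**
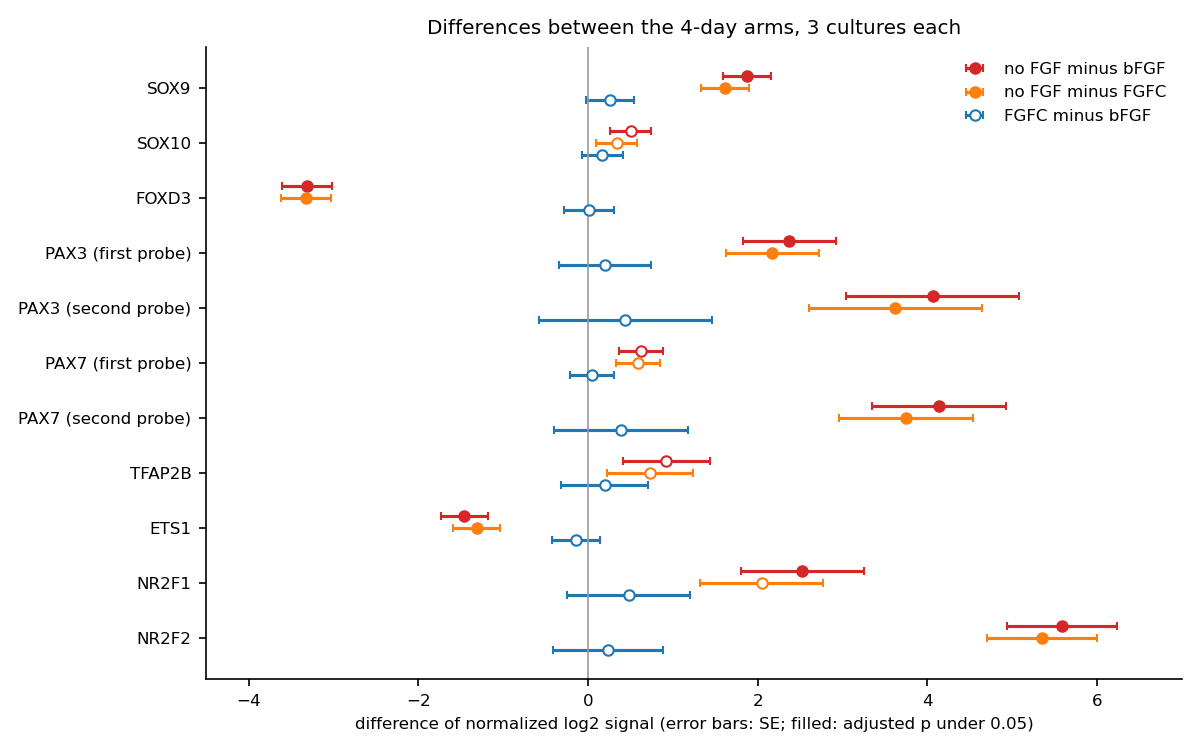
Differences of normalized log2 signal (x axis) between the 4-day arms for the 11 member probes (y axis), 3 cultures an arm, with error bars of 1 SE and filled points where the adjusted p is under 0.05. No FGF differs from both factors in the same direction for the called probes, whereas FGFC minus bFGF stays between -0.14 and 0.48.

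The 3 experiments without FGF were not alike. Differences from bFGF in experiments 1, 2 and 3 were 3.86, 6.41 and 6.48 for NR2F2, and 0.38, 4.41 and 2.79 for NR2F1. They were 0.87, 6.11 and 5.20 for the second PAX3 probe and 1.53, 5.94 and 4.93 for the second PAX7 probe. Experiment 1 was the lowest in each of these. SOX9 (1.80, 2.15 and 1.67), FOXD3 (-3.15, -2.88 and -3.89) and ETS1 (-1.29, -1.48 and -1.60) moved by much the same amount each time. Among genes chosen after their values were seen, the neural markers PAX6 (-2.09, 0.84 and 0.80) and LHX2 (0.99, 4.94 and 4.59) were likewise lowest without FGF in experiment 1. Of other neural markers, OTX2 (2.06, 1.75 and 1.71) was highest there and SIX3 (0.49, 0.60 and 0.49) hardly varied. Border genes went both ways, with TFAP2A (-0.91, -4.10 and -2.65) highest in experiment 1, and ZIC1 (-4.94, -1.85 and -1.99) and HES1 (-2.52, -1.76 and -1.86) lowest. The part of these cell types in the differences between experiments was not tested. In experiments 1 and 3 the arms shared a slide, and in experiment 2 the bFGF arrays were on another slide than the other arms.

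Other genes of the crest pathway were followed through lists. Of 12 neural plate border genes, 9 rose without FGF against bFGF and 1 (GBX2) fell, with a median difference of 3.74. DLX5 (difference 9.70, SE 0.34, adjusted p = 1.2e-07, at least 387-fold) and DLX6 (8.85, SE 0.36, at least 176-fold), homeobox genes of the border and the pharyngeal arches, were far above their levels with bFGF in all 3 experiments. DLX3 rose by 4.49 (SE 0.53) and PRDM1, a zinc finger repressor of the border, by 4.25 (SE 0.39). With 1 experiment left out, 6 to 9 border genes were called higher, these 4 among them each time, and GBX2 was no longer called. Of 14 other crest specifiers, 5 rose and 0 fell at a median of 0.36, led by SOX5 (3.90, SE 0.39), a partner of SOX9 in cartilage, and the BMP targets ID1 (2.81, SE 0.41) and ID2 (2.36, SE 0.27), then SOX6 (2.03, SE 0.60, adjusted p = 0.049), whose call was lost without experiment 2 (adjusted p = 0.186) or 3 (adjusted p = 0.44) and with experiment as a replicate block (adjusted p = 0.078). The call of ID3 was lost without experiment 2 (adjusted p = 0.107) or 3 (adjusted p = 0.195) too, and 3 of the 14 were called higher without experiment 3. SNAI2 and TWIST1, which drive the departure of crest cells from the epithelium, did not pass (adjusted p = 0.89 and 0.849), and SNAI2 was well above background on no array of either arm.

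Of 20 crest effectors and genes of crest derivatives, 6 rose and 1 fell, with a median of 0.45. The adhesion genes CDH6 (8.75, SE 0.29, adjusted p = 1.05e-07) and CDH11 (3.04, SE 0.29), the glial gene S100B (3.39, SE 0.32) and B3GAT1 (1.19, SE 0.20), whose product makes the HNK-1 epitope, were the 4 largest differences. The neuregulin receptor ERBB3, used by crest and its glia, fell (-0.92, SE 0.19, adjusted p = 0.00987). The calls of B3GAT1 (adjusted p = 0.0559 and 0.0506) and ERBB3 (adjusted p = 0.124 and 0.2) were lost without experiment 2 or 3, and 3 to 4 effectors were called higher with any 1 experiment left out. Of 6 relatives of NR2F1 and NR2F2, 1 rose, the retinoid receptor RXRA (1.08, SE 0.17, adjusted p = 0.0015, and 0.0729 without experiment 3). NR2F6, the nearest relative, was at 5.85 ± 0.09 (SD, n = 3) with bFGF and 5.64 ± 0.11 (SD, n = 3) without FGF and did not pass (adjusted p = 0.485).

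Markers of other cell types moved with the members. Of 7 neuroectoderm markers, 5 rose without FGF (PAX6, OTX2, LHX2, SIX3 and ZIC1), and their summed level was 2.98 to 5.33 (log2 of the sum) against -0.69 to -0.24 with bFGF. SOX1, the defining marker of neural plate, was well above background on no array of either arm. Of 12 markers of amnion and surface ectoderm, 6 rose (TFAP2A, TFAP2C, GATA3, ISL1, VTCN1 and IGFBP3) and 2 fell (GABRP and EPAS1). GATA3 rose most, by 5.41 (SE 0.48, at least 20.1-fold), and 4 to 6 were called higher with 1 experiment left out. The summed level was 2.94 to 3.47 against 2.91 to 3.18, and most of it was KRT7, which was not called (2.75 with bFGF, 2.69 without FGF). TP63 was well above background on no array without FGF. POU5F1 (-1.08, SE 0.22, adjusted p = 0.00855) and NANOG (-1.71, SE 0.25, adjusted p = 0.000957) fell and SOX2 (1.32, SE 0.16, adjusted p = 0.000363) rose, all at levels well above background. The calls of ZIC1 (adjusted p = 0.0607 and 0.138) and POU5F1 (adjusted p = 0.171 and 0.147) were lost without experiment 2 or 3, and that of NANOG without experiment 3 (adjusted p = 0.0562). None of 7 liver and yolk sac markers and none of 5 skeletal muscle markers was called, 1 of 7 mesoderm markers (PDGFRA) and 1 of 8 endothelial markers (VWF) rose, and 2 endothelial markers (KDR and TIE1) fell, TIE1 no longer without experiment 3 (adjusted p = 0.0963). With experiment as a replicate block the mesoderm marker MESP1 also passed (1.49, adjusted p = 0.00263). Of 7 cartilage markers, 3 rose (SOX5, SOX6 and COL11A1) and 1 fell (MATN3), but COL2A1 and ACAN, its defining matrix genes, did not pass (adjusted p = 0.868 and 0.623). Without experiment 2 or 3 SOX5 alone of these 4 was called, and COL11A1 was not called without experiment 1 either (adjusted p = 0.0684). How far cells of any of these types carried the members' differences was not tested.

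Replacing bFGF by FGFC for 4 days gave no call for any of the 9 members, and 0% of all probes were called by limma, with 1262 of 42405 probes at an unadjusted p under 0.05. Differences (FGFC minus bFGF) ran from -0.14 for ETS1 to 0.48 for NR2F1. For FOXD3 the difference was 0.01 with a 95% interval of -0.63 to 0.66, and for SOX9 it was 0.26 with -0.36 to 0.89, so that both intervals leave out differences of the size seen without FGF. The intervals were wide for NR2F2 (0.24, from -1.18 to 1.66), NR2F1 (0.48, from -1.11 to 2.07) and the second PAX3 probe (0.44, from -1.80 to 2.69), all of which were not well above background in either arm. A smaller difference between the factors was therefore not detectable for these.

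Long-term culture compared the factors in 5 systems, each with 1 culture a factor, paired by system. No member was called, 0% of all probes were called, and 2537 probes had an unadjusted p under 0.05. NR2F2 was lower with FGFC by 0.68 on average (SE 0.25, 95% interval of the difference -1.27 to -0.09, adjusted p = 0.701), with differences (FGFC minus bFGF) of -1.41 for 201B7, -1.26 for KhES-1, -0.11 for 253G1, and for H1 -0.68 in E8 Medium and 0.06 in MEF-conditioned medium. FOXD3 was higher with FGFC by 0.35 (SE 0.14, 95% interval 0.02 to 0.68, adjusted p = 0.701), with 0.06, 0.41, 0.64, 0.65 and -0.02 in the same order. Both intervals leave out 0, yet neither gene passed the correction. Of the others, NR2F1 differed by -0.46 (SE 0.26) and SOX9 by 0.30 (SE 0.18), and the rest lay between -0.21 and 0.14.

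**Figure D3:**
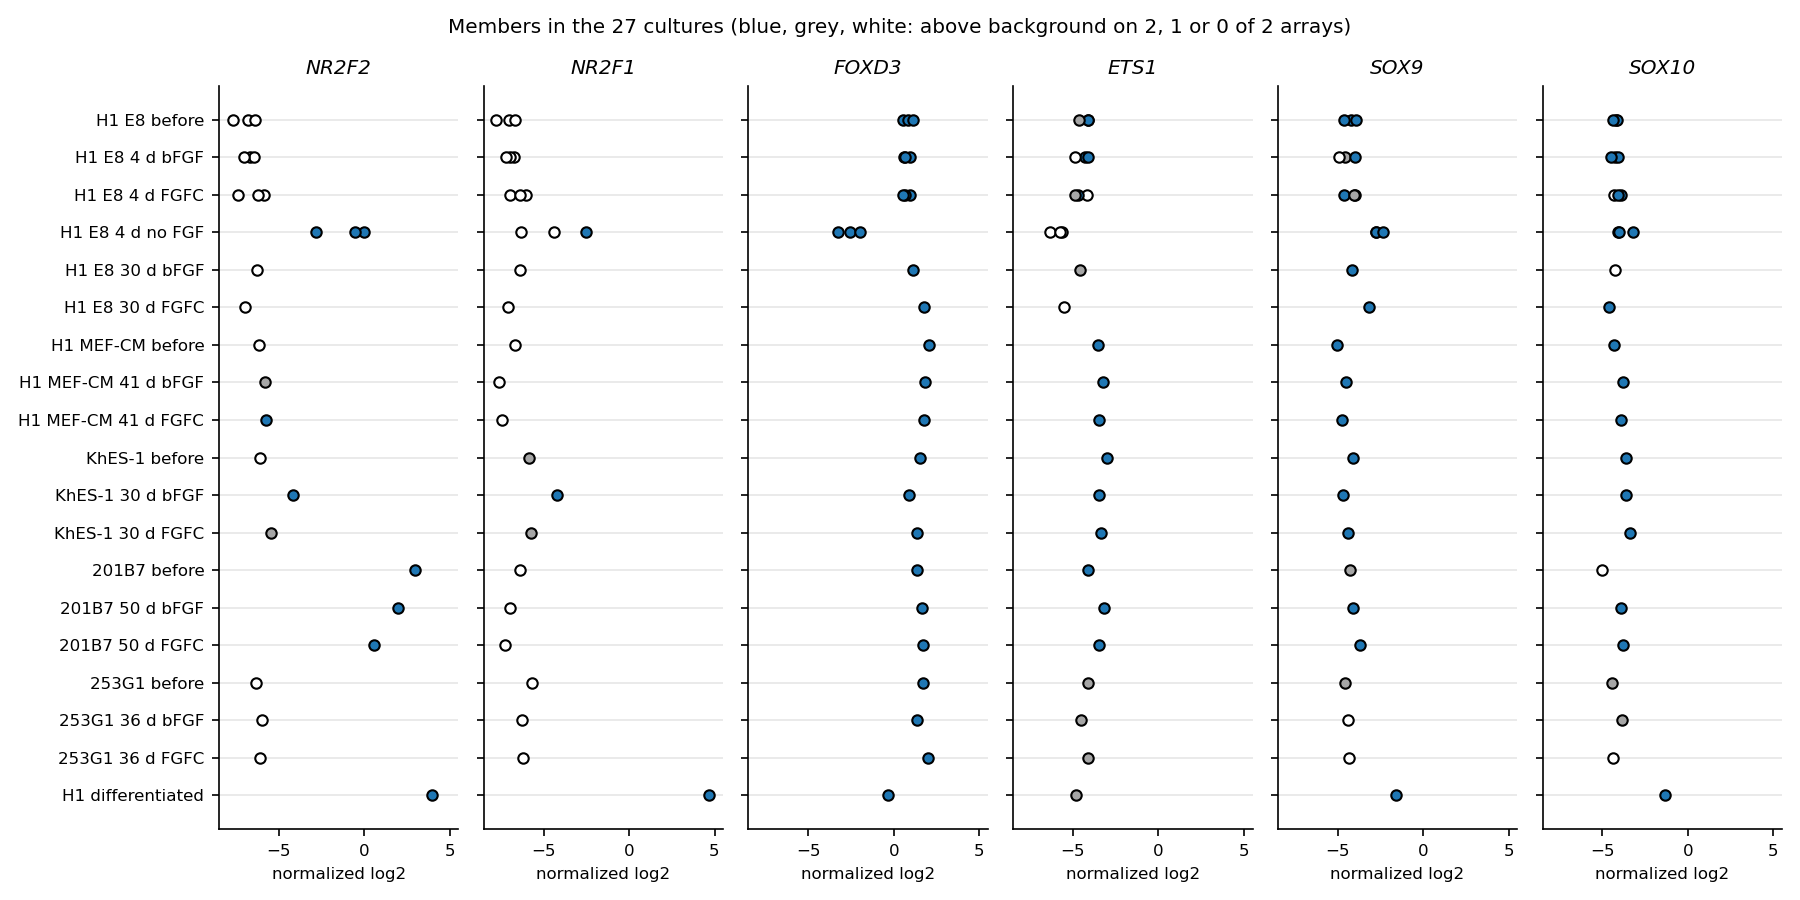
Normalized log2 signal (x axis) of NR2F2, NR2F1, FOXD3, ETS1, SOX9 and SOX10 in all 27 cultures (rows), filled blue, grey or white where the probe was well above background on 2, 1 or 0 of 2 arrays. NR2F2 stands at 0.54 to 2.96 in the 3 cultures of 201B7, above every other pluripotent culture with FGF, and FOXD3 is lowest in the 3 cultures without FGF.

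Between the 5 systems, 6 of the 9 members differed by a moderated F test over 15 cultures, where 74.7% of all probes did. The share of members called is thus no higher than that of the array as a whole. Line, medium, FGF dose, slide and scan day differ together between systems and cannot be told apart. NR2F2 had the widest range of means, 8.49 (adjusted p = 8.55e-07). In 201B7 it was at 2.96 before, 1.95 after 50 days with bFGF and 0.54 after 50 days with FGFC, on 6 of 6 arrays well above background. In the other 4 systems it lay between -6.95 and -4.17, with means of -5.24 ± 0.99 in KhES-1, -5.91 ± 0.23 in H1 in MEF-conditioned medium, -6.13 ± 0.17 in 253G1 and -6.68 ± 0.36 in H1 in E8 Medium (SD, n = 3 each). 201B7 stood apart from all of them, while of the neighbours among the other 4 only 253G1 and H1 in E8 Medium differed by more than the larger SD of the pair. The probe was well above background on no array of that pair, so this difference lies between signals at background. Without 201B7 the range of the NR2F2 means was 1.44 (adjusted p = 0.0369).

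Some other genes, of mesenchyme and of other cell types, lay higher in 201B7 than in the other 12 cultures. Of 7 mesoderm markers, PDGFRA alone lay above the other 12 cultures in all 3 cultures of 201B7 (2.77, 1.88 and 0.60 in the order above, against at most -2.76), and the summed level of the list was 2.80, 1.95 and 0.75, against -3.05 to -1.54 in the other 12 cultures. PDGFRA made up most of that sum in 201B7. Of the early mesoderm markers, MIXL1 (-4.97, -3.82 and -4.05) was well above background on 4 of 6 arrays, TBX6 on 2 and MESP1 on 1, and all 3 genes lay within their ranges over the other 12 cultures. FOXF1, a gene of lateral mesoderm, was at -3.99, -4.94 and -5.68 and above background on 4 of 6 arrays, against at most -5.08. HAND1 was above background on 1 array and MEOX1 on none. CDH11 (4.17, 2.93 and 1.62, against at most -1.44), TWIST1 (1.52, 0.26 and -1.03, against at most -1.16) and HAND2 (-2.52, -3.93 and -5.00, against at most -6.23), chosen from the lists after their values were seen, followed the same order. Other cell types had such genes too, chosen in the same way. CDH5 of endothelium (-0.40, -1.51 and -2.48, against at most -1.97) and GATA3 of amnion and surface ectoderm (-2.18, -3.82 and -4.92, against at most -4.45) lay above the other 12 cultures except with FGFC. SOX17 of endoderm (-4.97, -0.84 and -0.85, against at most -2.24) did so after 50 days. NR2F1 stayed low in 201B7 (-6.39, -6.96 and -7.26, on no array above background), as did PAX3 and TFAP2B. The part of these markers in the NR2F2 signal was not tested. KhES-1, which was also kept on MEF feeder cells, had NR2F2 at -6.11, -4.17 and -5.43.

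NR2F1 was measured above background in only 1 pluripotent culture with FGF on both arrays, KhES-1 after 30 days with bFGF (-4.21), beside -5.83 before and -5.73 with FGFC in that line. NR2F2 was also at its highest for KhES-1 in that culture. Means of NR2F1 over systems were -5.26 ± 0.91 in KhES-1, -6.06 ± 0.33 in 253G1, -6.82 ± 0.38 in H1 in E8 Medium, -6.87 ± 0.44 in 201B7 and -7.23 ± 0.49 in H1 in MEF-conditioned medium (SD, n = 3 each, adjusted p = 0.00493), and among neighbours in this order only 253G1 and H1 in E8 Medium differed by more than the larger SD. Outside KhES-1 the probe was well above background on no array of these systems, so the order of the others follows signal at background. ETS1 was highest in KhES-1 (-3.29 ± 0.23), H1 in MEF-conditioned medium (-3.43 ± 0.14) and 201B7 (-3.59 ± 0.47), which did not differ beyond their SD, and lower in 253G1 (-4.25 ± 0.22) and H1 in E8 Medium (-4.76 ± 0.72), both in E8 Medium (n = 3 each, adjusted p = 0.00458).

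FOXD3 was well above background on 54 of 54 arrays. With FGF it lay between 0.52 and 2.06 in all 23 pluripotent cultures, with system means of 1.13 ± 0.62 in H1 in E8 Medium, 1.26 ± 0.31 in KhES-1, 1.55 ± 0.18 in 201B7, 1.70 ± 0.32 in 253G1 and 1.89 ± 0.15 in H1 in MEF-conditioned medium (SD, n = 3 each). These did not pass the F test (adjusted p = 0.113), and neither did SOX10 (-4.37 to -3.55, adjusted p = 0.107). SOX9 means ranged from -4.78 in H1 in MEF-conditioned medium to -3.85 in H1 in E8 Medium (adjusted p = 0.04), where the 30-day FGFC culture was the highest at -3.18. TFAP2B was called (adjusted p = 0.00128) although its probe was well above background in none of these cultures, so that its means of -7.93 to -6.33 follow signal at background. PAX7 by its first probe ranged from -5.01 to -4.17 (adjusted p = 0.0232), and its second probe had a range of means of 2.92 (adjusted p = 0.000848). PAX3 did not pass by its first probe, the one counted (range 0.81, adjusted p = 0.0565), but passed by its second (range 1.83, adjusted p = 0.00736). Both PAX3 probes were well above background on few arrays of these systems.

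Differentiated H1 cells, 1 culture on 2 arrays, carried 6 of the 9 members at least 2-fold above the mean of the 7 H1 cultures in E8 Medium with bFGF (NR2F1, NR2F2, TFAP2B, PAX3, SOX10 and SOX9), and 1 (FOXD3) at least 2-fold below. Over all probes 13.5% were at least 2-fold higher and 15.9% at least 2-fold lower, and the median difference was -0.18. There is no replicate of the differentiated culture, and no test was made. The median difference of the members was 2.92. When signals were first raised to the dimmest measured signal of each array, the median over all probes shifted to -0.39, and the same number of members was at least 2-fold higher.

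NR2F1 and NR2F2 had their highest levels of all 27 cultures there. NR2F1 was at 4.70, against -7.76 to -6.39 in the 7 reference cultures, at least 1497-fold higher. NR2F2 was at 3.96, against -7.66 to -6.27, at least 897-fold higher. TFAP2B was at 1.62 (at least 176-fold higher), and this was the only culture in which it was well above background. The first PAX3 probe was at -1.27 (at least 21.9-fold) and the second at 1.55 (at least 168-fold). For PAX7 the probes disagreed again, the first at -3.82, 0.25 above the reference, and the second at 0.78, 6.32 above it.

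The SOX factors were higher by less. SOX10 was at -1.35, 7.54-fold above the reference, and no other culture was above -3.22. SOX9 was at -1.57, 6.88-fold above the reference and 2.08-fold above the mean of the cultures without FGF. FOXD3 was at -0.32, which is 2.20-fold below the reference (0.52 to 1.13) yet 4.82-fold above the 4-day cultures without FGF. ETS1 was at -4.82, with 1 of 2 arrays well above background and a difference of -0.42. Against the cultures without FGF, NR2F1 differed by 9.12, TFAP2B by 7.51 and NR2F2 by 5.10, with PAX3 2.48 higher by its first probe.

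**Figure D4:**
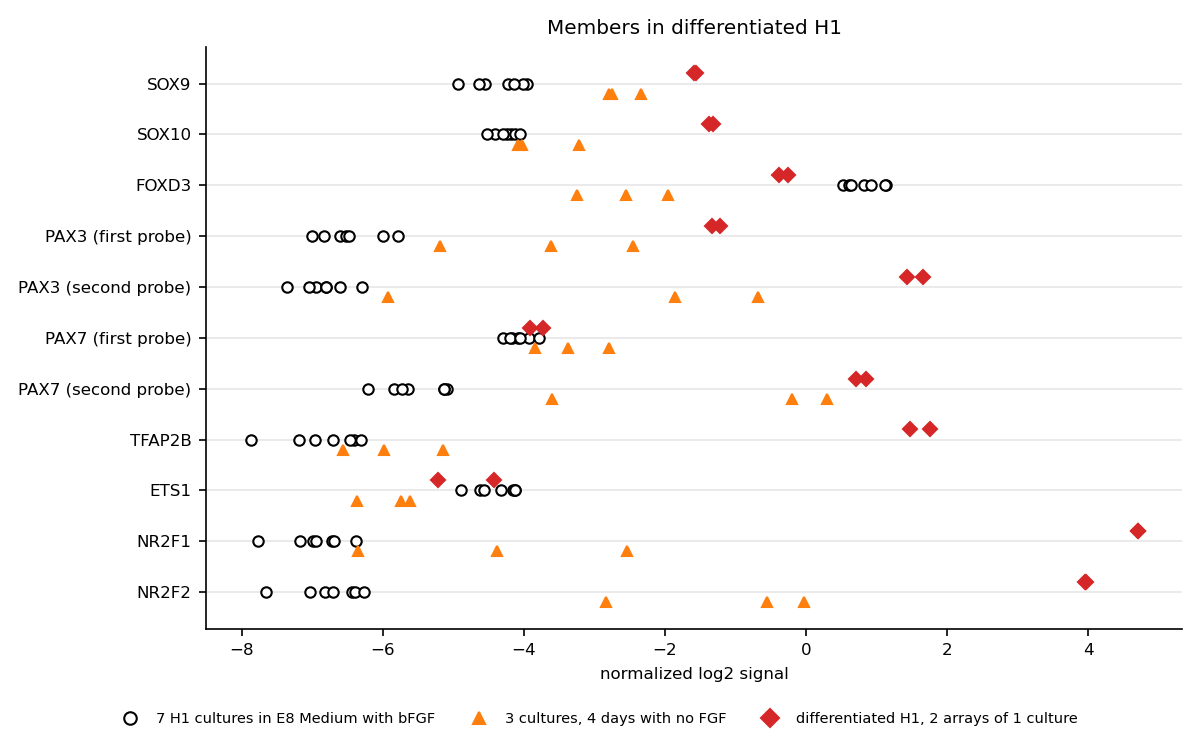
Normalized log2 signal (x axis) of the 11 member probes (y axis) in differentiated H1 (2 arrays of 1 culture), in the 7 H1 cultures in E8 Medium with bFGF and in the 3 cultures after 4 days without FGF. NR2F1, NR2F2, TFAP2B, PAX3, SOX9 and SOX10 lie to the right of both groups, and FOXD3 lies between them.

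In this culture 10 of 12 border genes were at least 2-fold higher and 1 lower, with 7 of 14 other specifiers higher (among them SNAI2 by 5.93 and TWIST1 by 4.26), and 11 of 20 effectors higher and 2 lower. Markers of many tissues were high beside them. All 12 markers of amnion and surface ectoderm, 6 of 7 liver and yolk sac markers, 6 of 7 mesoderm markers, 5 of 7 neuroectoderm markers and 5 of 7 cartilage markers were at least 2-fold higher, and 5 of 6 pluripotency markers were at least 2-fold lower. Not every tissue list was higher. Of 8 endothelial markers 2 were at least 2-fold higher and 3 lower, and of 5 skeletal muscle markers 2 were higher and 0 lower. The summed levels were 6.87 for amnion and surface ectoderm, 5.80 for liver and yolk sac and 4.56 for neuroectoderm. They were led by KRT7 (5.79), TTR (5.14) and LHX2 (4.08) in turn. Since they add different probes, the sums do not give the relative amounts of these tissues. The part of these markers in the members' levels was not tested.

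Finally, the genes whose level over the 27 cultures was most like that of a member were sought among 16022 genes, for the 6 members measured above background on both arrays of at least 5 cultures. These correlations describe the cultures, which share lines, experiments and slides, and they have no p. NR2F2 went with EFNB2, an ephrin ligand (r = 0.96, rho = 0.87), and FZD1, a WNT receptor (r = 0.95, rho = 0.46). EFNB2 was at -0.72 with bFGF, 1.67 without FGF, 3.09 in differentiated H1 and 1.97 in 201B7. FOXD3 went with ALKAL2 (r = 0.95, rho = 0.71), a ligand of the ALK receptor, ZNF488 (r = 0.95, rho = 0.80) and JAZF1 (r = 0.92, rho = 0.81). ALKAL2 was at -0.70 with bFGF and -5.68 without FGF.

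SOX9 went with OXGR1 (r = 0.94, rho = 0.81) and IQCE (r = 0.92, rho = 0.77). SOX10 went with CDKN1C, an inhibitor of the cell cycle (r = 0.94, rho = 0.88), LCA5 (r = 0.89, rho = 0.79) and PALM (r = 0.89, rho = 0.84), and without the differentiated culture these r values were 0.85, 0.79 and 0.78. ETS1 went with BCL11B (r = 0.92, rho = 0.85), FAM162B (r = 0.92, rho = 0.89) and the neurofilament gene NEFH (r = 0.91, rho = 0.88). The first PAX7 probe went with FGF3 (r = 0.87, rho = 0.87) and with KRTAP4-8 and KRT78 (r = 0.85 each). PAX3, TFAP2B and NR2F1 were above background in too few cultures to be compared.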

How the data were processed

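RNA of 27 cultures was hybridized to 54 single-colour Agilent arrays, 2 a culture. The deposited files are scanner output of Feature Extraction (version 10.7.3.1, per the file headers), and the processed signal intensity in them, background-subtracted by that program, was deposited on a linear scale by the authors. A series table deposited by the authors holds the same processed signal intensity. From the intensity, control and outlier spots were left out (4259 control spots an array; 266 to 623 outliers; 0 saturated), spots of a probe were averaged, values under 1 were set to 1, log2 was taken and the 75th percentile of the array was subtracted. A probe was well above background where at least 0.5 of its spots were so marked. Of 42405 probes, 25715 had 1 gene symbol through RefSeq and 16690 had none. Each gene is given by the probe with the highest mean signal (PAX3 and PAX7 by both).

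Duplicate arrays were averaged to 1 value a culture. The 4-day arms were fitted with limma (version 3.58.1, R 4.3.3) on the 12 H1 cultures in E8 Medium, long-term pairs on 10 cultures with system as a block, and systems by a moderated F test on 15, with Benjamini-Hochberg adjustment over all probes at 0.05, two-sided. Same-numbered experiments were taken as pairs for the 2 comparisons without FGF, since after removal of group means every same-numbered pair correlated over probes at 0.191 to 0.321 with bFGF and 0.227 to 0.26 with FGFC. The pairs of FGFC with bFGF (0.077 to 0.179) did not all pass 0.1. The fits as reported have no such block, and the blocked value is given where it changes a call. An exact permutation of 3 against 3 cultures cannot give a p under 0.1. The differentiated culture had no test. A fold against a group not well above background on any array is a bound. It is given only where the other group was well above background on all its arrays. The fit was also run on simulated data that gave each probe the same spread in all groups. This differs from members such as NR2F1 and NR2F2, whose spread was wider without FGF. Alternatives were normexp (offset 50), quantile normalization, a floor, a filter on dim probes, single arrays, left-out experiments or systems, a replicate block, slide as a block, only the arms compared, other reference cultures and, added after the data were seen, scan day as a block, the second probes under each alternative and the lists without each experiment. The number of cultures limits the precision. On 5 arrays the passage given in 2 label fields differed, and groups follow the titles. The members, gene lists and marker lists were chosen with earlier results of these data known. Members are named by rule in full. Of a pathway list, up to 4 of the largest called differences are named, and other genes are named from marker lists or as chosen after their values were seen. For 2 members, 1 of the 3 genes with the most similar pattern is not reported here.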

Additional observations from a re-analysis of the deposited data

How the results depend on the processing

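Without FGF against bFGF, 6 of 9 members were called, and 4 to 6 under the other scalings, single arrays, slide, scan day and arm settings, and 3 where only probes well above background were kept (fewer probes tested). Leaving out 1 experiment gave 3 to 6 members. Without FGF against FGFC, 5 were called, 3 with only probes well above background, and 2 to 5 with 1 experiment left out. FGFC against bFGF gave 0 members under every alternative run, at 4 days and in long-term culture. Among systems 6 were called, 3 under normexp, and 4 to 7 with 1 system left out. NR2F2 and FOXD3 kept their calls in both comparisons without FGF under all alternatives, with NR2F2 differences from bFGF of 2.58 to 6.44 and FOXD3 of -3.52 to -2.53. With experiment as a replicate block 5 members were called against bFGF and 5 against FGFC. Over all 42405 probes that block gave 2520 higher and 3230 lower against bFGF, and 2136 higher and 2792 lower against FGFC. Of the members' calls, only that of NR2F1 against bFGF was lost (adjusted p = 0.0652), and among second probes that of PAX3 against FGFC (adjusted p = 0.0623). Of the lists' calls against bFGF, SOX6 and NGFR (adjusted p = 0.0515) were lost and MESP1 was gained. FGFC against bFGF gave 0 members with the block, and without the system as a replicate block 0 in long-term culture.

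Signs changed among differences that were not called, and the cause was not tested. Without FGF against FGFC, SOX10 was between -0.037 and 0.59 and TFAP2B between -0.11 and 1.16 with 1 experiment left out. For FGFC against bFGF at 4 days, normexp gave -0.049 for PAX3, -0.073 for TFAP2B and 0.082 for ETS1, and quantile normalization -0.28 for PAX3. The first arrays gave -0.046 for PAX7, the second arrays -0.012 for SOX10, -0.032 for FOXD3, 0.088 for ETS1 and -0.19 for NR2F2, and slide as a block -0.0027 for FOXD3. With 1 experiment left out these differences ran from -0.16 to 0.14 for FOXD3, -0.089 to 0.23 for PAX7, -0.084 to 0.58 for TFAP2B, -0.31 to 0.15 for ETS1 and -0.056 to 0.82 for NR2F2. In long-term culture PAX7 gave 0.12 under quantile normalization and 0.075 with the second arrays, and TFAP2B gave -0.015 with the floor. With 1 system left out PAX7 ran from -0.15 to 0.10 and ETS1 from -0.34 to 0.00094. FOXD3 in differentiated H1 was 2.27 higher than in the cultures without FGF. Against that reference 8 members were at least 2-fold higher, beside 6 with the others, but the share of all probes was not computed for it. ETS1 was among the 8 (1.09), although it was well above background on no array without FGF and on 1 of 2 arrays of differentiated H1. Signal over background limits the dim members PAX3, TFAP2B and NR2F1, for which a change near background could not be measured.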
